A study of Caenorhabditis elegans with 165 samples.

Results

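Telomere maintenance and checkpoint genes of Caenorhabditis elegans were followed through RNA-seq of 3 strains. The 9 genes were chosen by name, and their ids in the count files are DY3.4 (trt-1), B0280.10 (pot-1), F57C2.3 (pot-2), 3R5.1 (pot-3), R06A4.2 (tebp-1), T12E12.3 (tebp-2), Y41C4A.14 (mrt-2), H26D21.1 (hus-1) and C07H6.6 (clk-2). They are 9 of 20389 gene ids, and each passed the filter on low counts. The strains were 15eh1, in which X is joined to chromosome V, YPT41, in which X is joined to chromosome II, and the wild-type strain N2, with 4 libraries of each. Total RNA came from whole worms labelled L1-L3, while the series' design names L3 larvae. The labels name no other allele or agent, no joined chromosome end and no separate cultures, so p-values measure the spread between these libraries, which may be technical. Each fusion is represented by 1 strain. In whole worms, fewer cells of a type and less RNA per cell cannot be told apart.

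Telomeres are the repeat-carrying ends of linear chromosomes, and end-to-end fusions arise when they are lost or unprotected. In C. elegans, telomerase extends the repeats, proteins of the POT1 family bind their single-stranded overhang, and the TEBP proteins bind the double-stranded repeats. The checkpoint clamp that contains MRT-2 and HUS-1 senses damaged DNA and is also needed for telomerase to work on chromosome ends. Loss of trt-1, mrt-2 or hus-1 makes a line lose telomere sequence over generations and become sterile, with fused chromosomes. The fusion strains are used in the series as carriers of autosomal sequence next to X, and the comparisons here ask whether the genes that protect and extend chromosome ends are transcribed differently in them.

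None of the 9 genes lies on X or V in the RefSeq annotation of assembly WBcel235. Places along a chromosome are ranks among the annotated genes that also have an id in the count files. Chromosome II holds tebp-1 and pot-2, which are the 139th and 109th such genes from its right end. Chromosome III holds pot-1, pot-3, mrt-2 and clk-2, and pot-3 is the last such gene at the right end of III. Chromosome I holds trt-1 and hus-1, and chromosome IV holds tebp-2.

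Gene counts per library ranged from 8237095 to 31234047, so that 3 counts, taken as the detection floor, correspond to 0.0960 to 0.364 CPM (gene counts brought to a common library total). Levels below are CPM scaled by the TMM factors of edgeR unless stated otherwise. The replicate 1 libraries of the 3 strains stood apart from replicates 2 to 4 and went against their common stage label. The summed level of vit-1 to vit-6, yolk protein genes of the adult intestine, was 67321 to 167258 CPM in replicate 1, against 2.71 to 426 CPM in replicates 2 to 4. The summed level of 17 germline genes was 4391 to 16350 CPM in replicate 1, against 63.0 to 148 CPM in replicates 2 to 4. Strain comparisons are therefore given with all 4 replicates and with replicates 2 to 4 alone. The earlier results that showed this split were known when the genes were chosen.

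No member passed the threshold in a comparison of strains. In 15eh1 against N2, 0 of 9 genes passed the threshold of an adjusted p of 0.05 in edgeR's quasi-likelihood test, where 0% of 13186 tested genes passed it, and 0 of 9 had an unadjusted p below 0.05. In YPT41 against N2 it was 0 of 9, with 0.22% of tested genes past the threshold, and in the mean of both fusion strains against N2 it was 0 of 9, with 0.0379%. In 15eh1 against YPT41 it was 0 of 9, with 0.182%. In the 3 comparisons that involve YPT41, 0 of 9 likewise had an unadjusted p below 0.05, and DESeq2 called 0 of the 7 members to which it gave a p in each of the 4 comparisons. It gave no p for trt-1 and pot-2, which it therefore did not test. Over all tested genes in 15eh1 against N2, 206 had an unadjusted p below 0.05 in edgeR and DESeq2 called 10. A fit with the replicate number as a block called 0 of 9 in each comparison as well, although it called 9, 686, 69 and 241 of the tested genes in these 4 comparisons, against 0, 29, 5 and 24 without the block.

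The 9 log2 fold changes of 15eh1 over N2 ran from -0.31 for mrt-2 to 0.36 for trt-1, with a median of 0.04, and the median of all tested genes was 0.01. Of the 9, 6 were above 0. For YPT41 over N2 they ran from -0.62 for hus-1 to 0.21 for pot-2, with a median of -0.11 against 0.03 for all tested genes, and 2 of 9 were above 0. Both comparisons use the same N2 libraries. For 15eh1 over YPT41 they ran from -0.18 for pot-3 to 0.56 for pot-1, with a median of 0.26 against -0.02, and 6 of 9 were above 0. The SEs ran from 0.38 to 1.39 in these comparisons, and no member's difference in them reached 1 SE. This fit has no term for the replicate, so the split of replicate 1 counts as spread and widens the SEs. Its common estimate of the relative spread between libraries (biological coefficient of variation) was 0.638, against 0.297 with the replicate block. Differences below 1 SE in it therefore do not show that the strains are alike. In the fit with the replicate block the SEs were smaller, and the differences farthest from 0 relative to their SE were 0.79 ± 0.30 for trt-1 (adjusted p = 0.213) and 0.81 ± 0.39 for hus-1 (adjusted p = 0.315), both for 15eh1 over YPT41, and -0.72 ± 0.38 for hus-1 in YPT41 over N2 (adjusted p = 0.282), all from edgeR and none past the threshold.

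**Figure D1:**
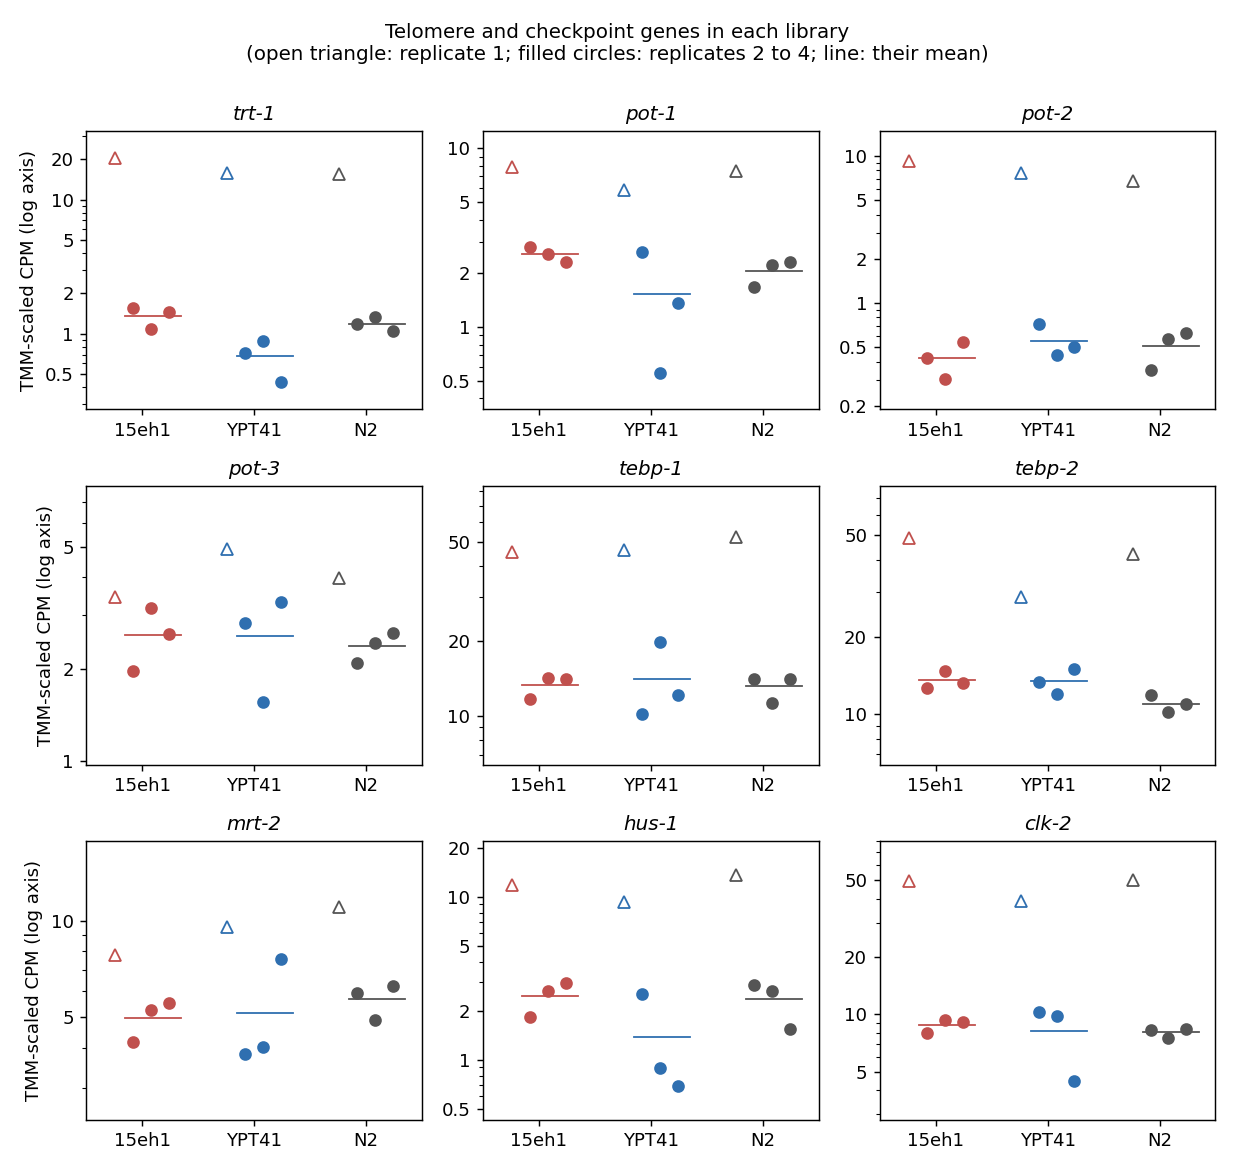
TMM-scaled CPM of the 9 genes (log axis) in each library of 15eh1, YPT41 and N2; open triangles are replicate 1, filled circles replicates 2 to 4, and lines the mean of replicates 2 to 4. Every triangle lies above every circle of its gene. In replicates 2 to 4, trt-1 in YPT41 (0.437 to 0.890 CPM, on 7 to 13 counts) lies below 15eh1 and N2, not past the threshold. In replicate 1 it lies slightly above N2 (15.8 against 15.4 CPM).

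trt-1 encodes the catalytic subunit of telomerase. In replicate 1 it was at 20.3 CPM in 15eh1, 15.8 CPM in YPT41 and 15.4 CPM in N2. Replicates 2, 3 and 4 had 1.55, 1.08 and 1.45 CPM in 15eh1, 0.718, 0.890 and 0.437 CPM in YPT41, and 1.19, 1.34 and 1.04 CPM in N2. Among these replicates each YPT41 library was below each library of the other strains, whereas 15eh1 and N2 overlapped. In replicate 1, by contrast, YPT41 was slightly above N2. The YPT41 values rest on 13, 8 and 7 counts. Their exact 95% Poisson intervals, which cover counting error only, were 0.382 to 1.23, 0.384 to 1.75 and 0.176 to 0.900 CPM, and the first and second of them reach into the range of N2.

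With all 4 replicates, trt-1 had log2 fold changes of 0.36 ± 1.39 (SE) for 15eh1 over N2 and -0.07 ± 1.39 for YPT41 over N2. In replicates 2 to 4 alone, the mean was 1.36 ± 0.245 CPM in 15eh1, 0.682 ± 0.229 CPM in YPT41 and 1.19 ± 0.149 CPM in N2 (SD, n = 3 each). The log2 fold change of YPT41 over N2 was then -0.92 ± 0.40, with an unadjusted p of 0.0443 and an adjusted p of 0.274 in edgeR. That of 15eh1 over YPT41 was 1.09 ± 0.40, with an unadjusted p of 0.021 and an adjusted p of 0.32. Neither passed the threshold. Strains did not overlap downwards in 7.35% of tested genes for YPT41 against N2 and upwards in 6.23% for 15eh1 against YPT41, and 1 of 9 members did so in each.

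The POT1 family was represented by pot-1 and pot-2, whose products bind the telomeric overhang and restrain its lengthening, and by pot-3, a gene of the same family. In replicate 1, pot-1 was at 7.82 CPM in 15eh1, 5.85 CPM in YPT41 and 7.51 CPM in N2. Its levels in replicates 2, 3 and 4 were 2.82, 2.56 and 2.32 CPM in 15eh1, 2.65, 0.556 and 1.37 CPM in YPT41, and 1.68, 2.22 and 2.32 CPM in N2. YPT41 replicates 3 and 4, with 5 and 22 counts, were below every other library, and YPT41 replicate 2 lay within the range of 15eh1. The log2 fold change of 15eh1 over N2 was 0.18 ± 0.71 with all replicates and 0.27 ± 0.45 in replicates 2 to 4. That of YPT41 over N2 was -0.38 ± 0.72 with all replicates and -0.49 ± 0.47 in replicates 2 to 4.

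pot-2 was the sparsest member outside replicate 1. In replicate 1 it was at 9.28 CPM in 15eh1, 7.74 CPM in YPT41 and 6.80 CPM in N2. In replicates 2, 3 and 4 it was at 0.422, 0.303 and 0.548 CPM in 15eh1, 0.718, 0.445 and 0.499 CPM in YPT41, and 0.350, 0.567 and 0.625 CPM in N2. These are 6, 7 and 17 counts in 15eh1, 13, 4 and 8 in YPT41 and 5, 11 and 21 in N2, and the 3 strains overlapped. No strain difference passed the threshold: the log2 fold changes in replicates 2 to 4 were -0.31 ± 0.47 for 15eh1 and 0.0026 ± 0.49 for YPT41, each over N2.

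pot-3 was at 3.44 CPM in 15eh1, 4.95 CPM in YPT41 and 3.96 CPM in N2 in replicate 1. Replicates 2, 3 and 4 stood at 1.97, 3.16 and 2.61 CPM in 15eh1, 2.82, 1.56 and 3.31 CPM in YPT41, and 2.098, 2.42 and 2.62 CPM in N2. The strains overlapped. With all replicates its log2 fold changes over N2 were 0.01 ± 0.38 in 15eh1 and 0.19 ± 0.38 in YPT41, among the smallest SEs of the members.

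tebp-1 and tebp-2 are paralogs whose products bind double-stranded telomere repeats. tebp-1 was at 45.8 CPM in 15eh1, 46.5 CPM in YPT41 and 52.5 CPM in N2 in replicate 1. In replicates 2, 3 and 4 it was at 11.8, 14.2 and 14.1 CPM in 15eh1, 10.2, 19.9 and 12.1 CPM in YPT41, and 14.1, 11.2 and 14.1 CPM in N2. The strains overlapped, and YPT41 replicate 3 was the highest outside replicate 1. The log2 fold changes over N2 with all replicates were -0.10 ± 0.66 in 15eh1 and -0.05 ± 0.66 in YPT41, and in replicates 2 to 4 they were -0.0020 ± 0.25 in 15eh1 and -0.02 ± 0.25 in YPT41.

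tebp-2 was at 48.5 CPM in 15eh1, 28.7 CPM in YPT41 and 42.01 CPM in N2 in replicate 1. Its levels in replicates 2, 3 and 4 were 12.7, 14.8 and 13.3 CPM in 15eh1, 13.4, 12.02 and 15.0 CPM in YPT41, and 11.9, 10.2 and 10.9 CPM in N2. Each of the 6 fusion-strain libraries among these was above each of the 3 N2 libraries, the nearest at 12.02 and 11.9 CPM, while in replicate 1 YPT41 was below N2. The means were 13.6 ± 1.08 CPM in 15eh1, 13.5 ± 1.51 CPM in YPT41 and 11.006 ± 0.845 CPM in N2 (SD, n = 3 each). In replicates 2 to 4 the log2 fold changes were 0.28 ± 0.18 for 15eh1 over N2 and 0.19 ± 0.18 for YPT41 over N2, with adjusted p of 0.999 and 0.599 in edgeR. In these replicates the strains did not overlap upwards in 8.68% of tested genes for 15eh1 against N2 and in 14% for YPT41 against N2, and tebp-2 was 1 of 9 members in each comparison. The separation depends on the scaling. By library totals without TMM, YPT41 replicate 4 was at 11.7 CPM, below each of the N2 libraries, which were at 13.8, 11.8 and 11.75 CPM, and 15eh1 replicate 2 and YPT41 replicate 3 were below N2 replicate 2.

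mrt-2, the homolog of RAD1, and hus-1, the homolog of HUS1, encode subunits of the checkpoint clamp. mrt-2 was at 7.82 CPM in 15eh1, 9.54 CPM in YPT41 and 11.1 CPM in N2 in replicate 1. In replicates 2, 3 and 4 it was at 4.15, 5.24 and 5.51 CPM in 15eh1, 3.81, 4.01 and 7.55 CPM in YPT41, and 5.94, 4.89 and 6.25 CPM in N2. The strains overlapped. The log2 fold changes over N2 with all replicates were -0.31 ± 0.39 in 15eh1 and -0.17 ± 0.39 in YPT41, with adjusted p of 1.00 and 0.932 in edgeR.

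hus-1 was at 11.9 CPM in 15eh1, 9.27 CPM in YPT41 and 13.7 CPM in N2 in replicate 1. Replicates 2, 3 and 4 had 1.83, 2.64 and 2.96 CPM in 15eh1, 2.54, 0.890 and 0.687 CPM in YPT41, and 2.87, 2.63 and 1.55 CPM in N2. YPT41 replicates 3 and 4, with 8 and 11 counts, were below every other library, and YPT41 replicate 2 was within the range of N2. In replicates 2 to 4 the mean was 2.48 ± 0.584 CPM in 15eh1, 1.37 ± 1.02 CPM in YPT41 and 2.35 ± 0.702 CPM in N2 (SD, n = 3 each). The log2 fold change of YPT41 over N2 was -0.62 ± 0.95 with all replicates and -0.81 ± 0.51 in replicates 2 to 4 (adjusted p = 0.439 in edgeR).

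clk-2, the homolog of TEL2, acts with the checkpoint kinases of the ATM and ATR family. It was at 49.8 CPM in 15eh1, 38.9 CPM in YPT41 and 50.0 CPM in N2 in replicate 1. In replicates 2, 3 and 4 it was at 7.95, 9.35 and 9.08 CPM in 15eh1, 10.3, 9.79 and 4.49 CPM in YPT41, and 8.25, 7.52 and 8.34 CPM in N2. YPT41 held the lowest library, replicate 4, and also the highest, replicate 2. The log2 fold changes over N2 with all replicates were 0.04 ± 0.88 in 15eh1 and -0.22 ± 0.88 in YPT41.

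**Figure D2:**
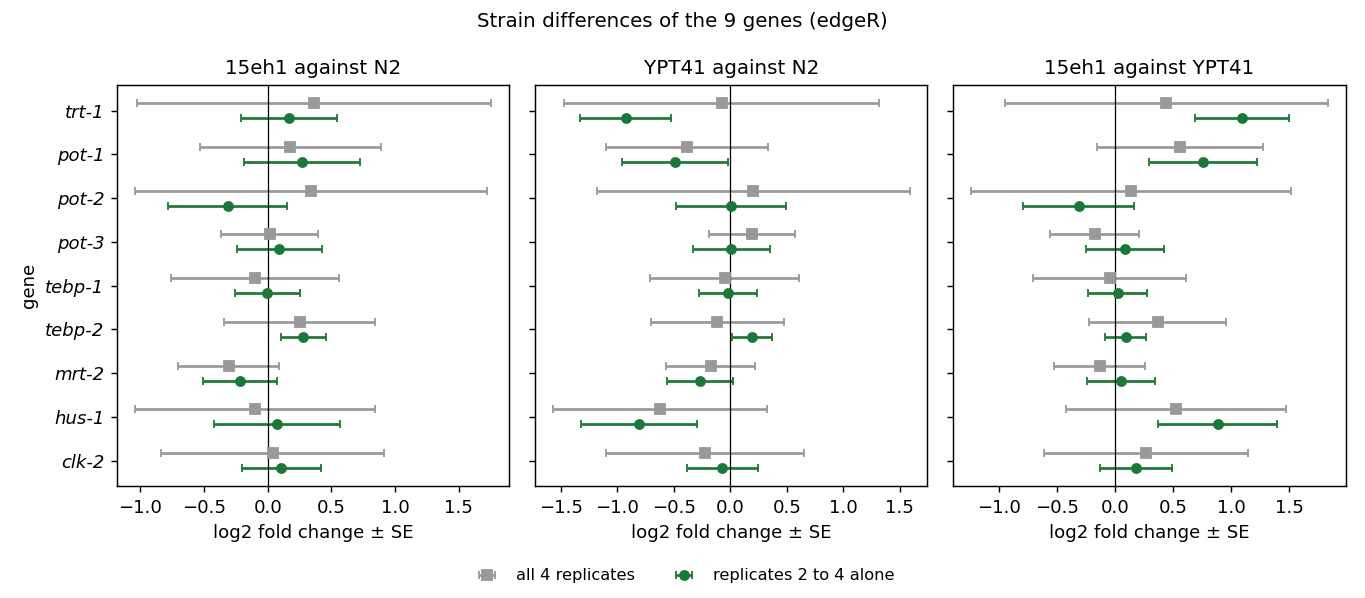
Log2 fold changes ± SE of the 9 genes for 15eh1 over N2, YPT41 over N2 and 15eh1 over YPT41; grey squares use all 4 replicates and green circles replicates 2 to 4 alone. The green bars are shorter, and the points farthest from 0 among them are trt-1 in YPT41 over N2 (-0.92) and in 15eh1 over YPT41 (1.09), neither past the threshold.

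Of 41 other telomere and checkpoint genes on a list, 40 matched an id and 39 were tested. The exceptions were top-3, without a match, and rpa-4, with 0 counts in all libraries. Of the 39, 0 passed the threshold in each of the 4 strain comparisons in edgeR. Their median log2 fold changes were -0.0041 for 15eh1 over N2, -0.28 for YPT41 over N2 and 0.32 for 15eh1 over YPT41. The smallest p in 15eh1 against N2 belonged to plp-1, which encodes a Pur alpha-like DNA-binding protein, at 0.44 ± 0.21 (adjusted p = 1.00), and to rfs-1, a RAD-51 paralog, at 0.63 ± 0.57. In YPT41 against N2 the smallest were rpa-2, a subunit of the single-strand binding protein RPA, at 0.40 ± 0.21 (adjusted p = 0.659 in edgeR), and plp-1 at 0.26 ± 0.21. In both fusion strains against N2 plp-1 had 0.35 ± 0.19 and rpa-2 had 0.23 ± 0.18. In 15eh1 against YPT41, rpa-2 had -0.33 ± 0.21, and ceh-37, a homeobox gene whose product binds telomere repeats, had -0.40 ± 0.37.

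All 9 genes were higher in replicate 1 than in replicates 2 to 4, in a fit with the strain and a term for replicate 1. Each passed the threshold in edgeR, where 62.9% of all tested genes did so and 31.1% were higher in replicate 1. In each of the 9, the 3 replicate 1 libraries lay above the other 9, as they did in 25.4% of tested genes. By library totals without TMM this held for 7 of 9: pot-3 was at 2.72 to 5.01 CPM in replicate 1 and 1.70 to 3.33 CPM in replicates 2 to 4, and mrt-2 at 6.17 to 9.65 CPM in replicate 1 and 4.14 to 6.88 CPM in replicates 2 to 4. The median log2 fold change of the 9 was 1.84, against -0.16 for all tested genes. Each of the 9 also passed the low-count filter when it was applied to replicates 2 to 4 alone. That filter is set by those libraries and differs from the filter of the test with 12 libraries. By library totals pot-2 was at only 0.319 to 0.779 CPM outside replicate 1. The filter with 12 libraries asks for its level in 4 libraries. Outside replicate 1 only YPT41 replicate 2 and N2 replicate 4 reached it for pot-2. pot-2 thus entered this test through the libraries where it is high, and its call and its lack of overlap are only a description.

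The rise was unequal among the members. trt-1 and pot-2 rose most, and their order is not settled. trt-1 had a log2 fold change of 4.05 ± 0.23 (adjusted p = 1.14e-08), and stood at 15.4 to 20.3 CPM in replicate 1, against 0.437 to 1.55 CPM in replicates 2 to 4. pot-2 rose by 3.96 ± 0.26, with 6.80 to 9.28 CPM in replicate 1 and 0.303 to 0.718 CPM in replicates 2 to 4. Since pot-2 entered the test through replicate 1, its rise is a description. Without YPT41 replicate 1 the values were 3.75 for trt-1 and 4.01 for pot-2, and replicate 1 over the mean of replicates 2 to 4 was 14.9 for trt-1 and 21.9 for pot-2 in 15eh1. By comparison, 3.02% and 3.19% of all tested genes had a larger log2 fold change than trt-1 and pot-2. In library counts trt-1 had 152 to 195 in replicate 1 and 7 to 45 in replicates 2 to 4, while the replicate 1 libraries held 10980737 to 13539912 gene counts, within the range of the others.

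hus-1 and clk-2 followed, with log2 fold changes of 2.51 ± 0.32 and 2.47 ± 0.20. hus-1 stood at 9.27 to 13.7 CPM in replicate 1, against 0.687 to 2.96 CPM in replicates 2 to 4, and clk-2 at 38.9 to 50.0 CPM against 4.49 to 10.3 CPM. tebp-1 rose by 1.84 ± 0.18, pot-1 by 1.78 ± 0.30 and tebp-2 by 1.64 ± 0.16. Within these, tebp-2 in YPT41 rose least: its replicate 1 library was 2.13 times the mean of replicates 2 to 4, against 3.57 times in 15eh1 and 3.82 times in N2, a difference that was not tested. Most of this contrast depends on the scaling. By library totals without TMM the values were 2.21 times in YPT41, 2.59 times in 15eh1 and 2.46 times in N2.

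mrt-2 and pot-3 rose least, by 0.84 ± 0.23 (adjusted p = 0.00688) and 0.70 ± 0.26 (adjusted p = 0.0341). mrt-2 stood at 7.82 to 11.1 CPM in replicate 1, against 3.81 to 7.55 CPM in replicates 2 to 4, and pot-3 at 3.44 to 4.95 CPM against 1.56 to 3.31 CPM. Neither call held when libraries were scaled by their totals alone, without TMM: the values were 0.52 for mrt-2 (adjusted p = 0.0705) and 0.39 for pot-3 (adjusted p = 0.268), and 7 of 9 members stayed past the threshold. That scaling moved the median of all tested genes to -0.50. The pot-3 call was also lost in 10 of 12 fits that left out 1 library, with adjusted p of 0.0517 to 0.173.

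**Figure D3:**
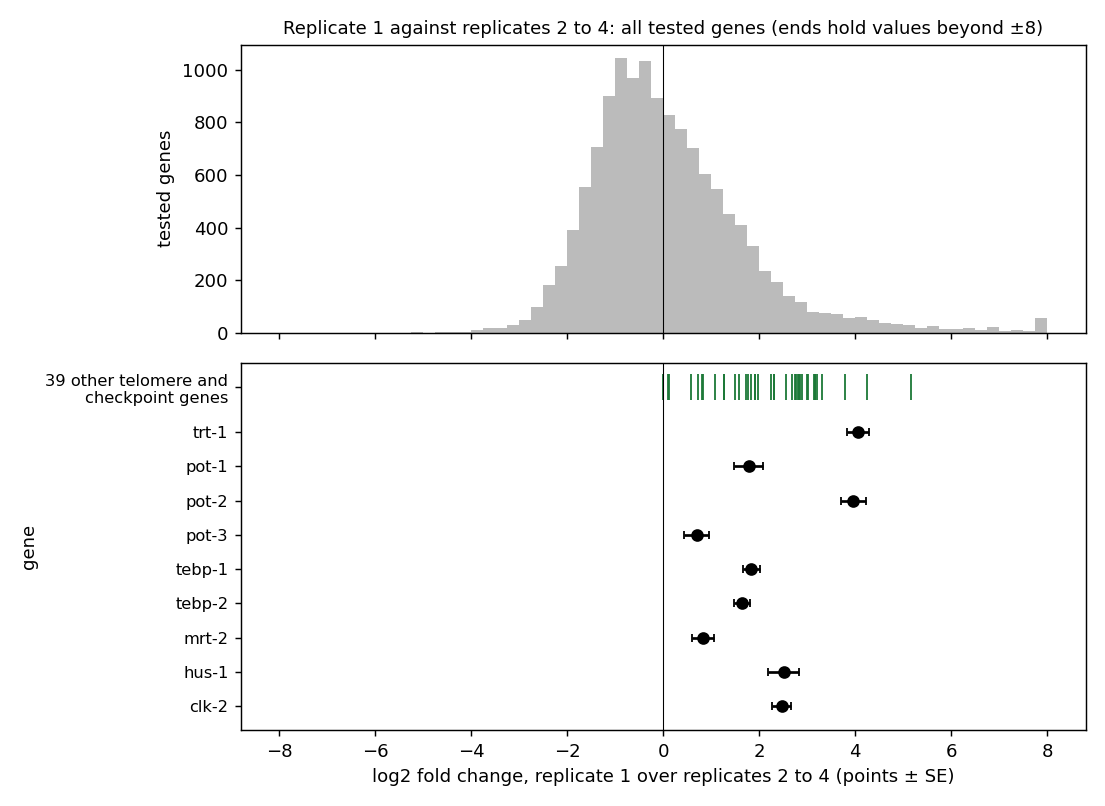
Top, log2 fold changes of replicate 1 over replicates 2 to 4 for all 13186 tested genes; bottom, the 39 tested genes of the wider list as green ticks and the 9 members as points with SE. The members run from 0.70 for pot-3 to 4.05 for trt-1 and all lie right of 0, while the median of all tested genes is -0.16.

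Ratios of counts between members of a library do not depend on how libraries are scaled, and some of them differed between replicate 1 and the rest. They are not levels per length, so only their change between libraries is read. pot-2 over pot-3 was 1.56 to 2.70 in replicate 1, against 0.0959 to 0.286 in replicates 2 to 4. hus-1 over mrt-2, the pair of clamp subunits, was 0.972 to 1.52 in replicate 1, against 0.0909 to 0.667 in replicates 2 to 4. Both ratios were therefore higher in each replicate 1 library than in any other. trt-1 over tebp-2 was 0.367 to 0.552 in replicate 1, against 0.0290 to 0.131 in replicates 2 to 4. In contrast, tebp-1 over tebp-2 was 0.944 to 1.62 in replicate 1 and 0.761 to 1.66 in replicates 2 to 4, and these ranges overlapped. Within N2 this last ratio was 1.25 in replicate 1 and 1.19, 1.101 and 1.29 in replicates 2, 3 and 4.

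**Figure D4:**
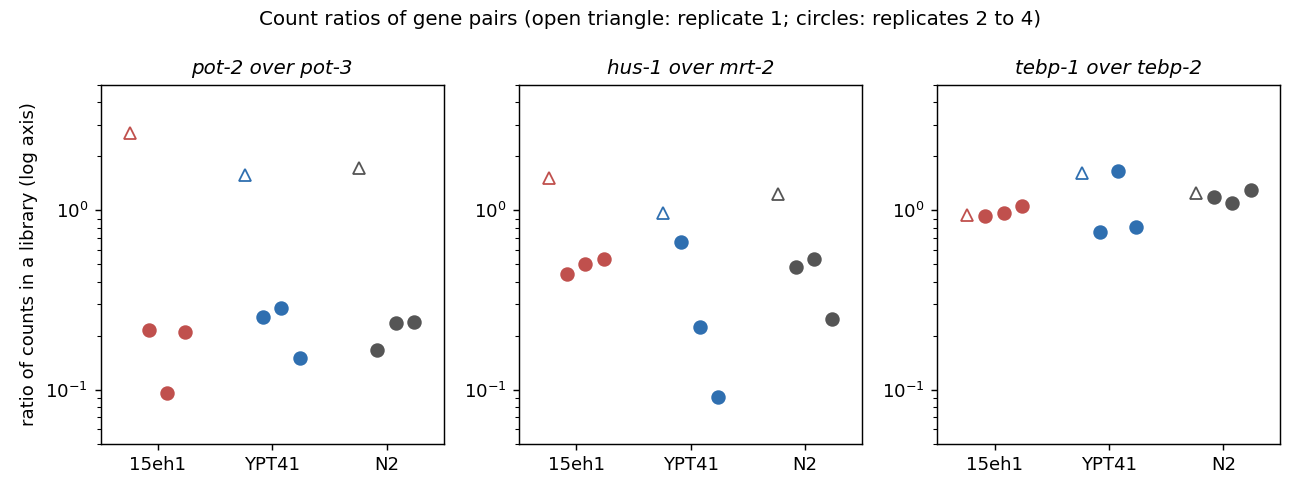
Ratios of counts (log axis) of pot-2 over pot-3, hus-1 over mrt-2 and tebp-1 over tebp-2 in each library of 15eh1, YPT41 and N2; open triangles are replicate 1 and circles replicates 2 to 4. The triangles lie above all circles for pot-2 over pot-3 and hus-1 over mrt-2, and among the circles for tebp-1 over tebp-2.

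The wider list moved with the members. Of its 39 tested genes, 35 were higher and 0 lower in replicate 1 past the threshold in edgeR, with a median log2 fold change of 2.302, against 31.1% higher and 31.8% lower among all tested genes. hpr-9, the clamp subunit that joins MRT-2 and HUS-1, rose by 2.76 ± 0.21, above the values of both, and mrt-1, a POT1-family gene needed for telomerase activity in C. elegans, rose by 2.90 ± 0.33. The smallest p belonged to him-6, the homolog of the Bloom syndrome helicase, at 3.32 ± 0.17, and to rad-54.L, a partner of the recombinase RAD-51, at 4.24 ± 0.22. sun-1, whose product links meiotic chromosomes to the nuclear envelope, had 5.15 ± 0.29. Thus 2 of the 39 rose more than trt-1, and atm-1, the ATM kinase gene, rose by 0.73 ± 0.16. The 4 genes not past the threshold were rpa-2, rfs-1, ceh-37 and plp-1.

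Markers of some other tissues differed in the same libraries. All 17 germline genes were higher in replicate 1 past the threshold in edgeR, with a median log2 fold change of 4.88, and all 17 had counts in each library. The summed level of 6 sperm genes was 15.7 to 42.9 CPM in replicate 1, against 0.420 to 1.67 CPM in replicates 2 to 4, but only 1 of the 6 passed the low-count filter, and it rose. For 6 early embryo genes it was 1.98 to 2.71 CPM in replicate 1, against 0.179 to 0.994 CPM, with up to 5 of the 6 at 0 in a library, and none passed the filter or was tested. For 3 muscle genes it was 8189 to 10028 CPM in replicate 1, against 11440 to 15734 CPM. The sum of 3 intestine genes went the other way from the yolk genes, with 275 to 538 CPM in replicate 1 against 738 to 1379 CPM. The list did not share this as a whole. Of these 3, 2 had a log2 fold change below 0 and 1 above 0, and 1 was lower past the threshold in edgeR. Their mean log2 CPM overlapped, at 5.52 to 6.25 in replicate 1 and 6.07 to 7.03 in replicates 2 to 4. Sums overlapped for 4 neuron genes (240 to 393 against 299 to 430 CPM), although 3 of the 4 were lower past the threshold. They also overlapped for 6 molting genes (897 to 1815 against 1020 to 2953 CPM), of which 1 was higher and 3 lower. The part of germline and adult transcripts in the rise of the telomere genes was not tested.

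YPT41 replicates 3 and 4, the libraries low in pot-1 and hus-1, stood apart in some marker lists and not in others. The germline list summed to 96.9 and 110 CPM in them, inside the range of 63.0 to 148 CPM of the other 7 libraries of replicates 2 to 4. The 3 intestine genes summed to 1093 and 1379 CPM in them, against 738 to 911 CPM in the other 7. The 6 sperm genes summed to 1.67 and 1.25 CPM, against 0.420 to 0.994 CPM. These sums lie close to the floor, with 2 of the 6 genes at 0 counts in each of YPT41 replicates 3 and 4. The 4 neuron genes summed to 430 and 412 CPM, against 299 to 392 CPM. Their mean log2 CPM was 6.59 in YPT41 replicate 3 but 6.06 in replicate 4, near the lowest of these libraries, so the higher sum there was not shared by the list. The part of these tissues in the low levels was not tested. Over the 9 libraries of replicates 2 to 4, Pearson's r between the log2 CPM of a member and the mean of the 17 germline genes ran from -0.35 for hus-1 to 0.05 for pot-3. The 6 molting genes summed to 1266 to 1676 CPM in 15eh1 and 1020 to 1763 CPM in YPT41, against 2225 to 2953 CPM in N2. Their part in the strain differences of tebp-2 and trt-1 was not tested.

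Among members, the closest pairs over the 9 libraries of replicates 2 to 4 were pot-1 with hus-1 (r = 0.68) and trt-1 with hus-1 (r = 0.67), while pot-1 and tebp-1 ran most opposed (r = -0.74). These libraries share depth and scaling, and several members had fewer than 10 counts in YPT41, so the values are a description. The named genes outside the list whose log2 CPM was most like that of a member, over the same 9 libraries, were oac-34 (r = 0.94) for trt-1, hrpk-1 (0.95) for pot-1, oac-6 (0.84) for pot-2, nuo-5 (0.95) for pot-3, prp-18 (0.95) for tebp-1, npr-25 (0.93) for tebp-2, emc-2 (0.95) for mrt-2, tbck-1 (0.96) for hus-1 and pop-1 (0.96) for clk-2. The next in order were spp-13 for trt-1, fog-2 for pot-1, cpr-3 for pot-2, fitm-2 for pot-3, sorf-2 for tebp-1, eor-1 for tebp-2, dnj-30 for mrt-2, npr-2 for hus-1 and mus-101 for clk-2. Of these, fog-2 has a close paralog, and reads without a unique place were not counted. pot-2 had the lowest such values, and it also had the fewest counts in these libraries. The search left out only the 9 members, and each r is the highest found among many genes over 9 libraries. High values can arise from such a search alone, so they too are only a description.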

How the data were processed

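Total RNA of whole worms was sequenced in 12 libraries (3 strains, 4 each). The authors deposited counts of reads per gene, 1 table per library. That these are whole, unscaled counts was read from the values, and each file ends with 5 summary lines, which stayed out of library sizes (reads without a feature 2.48% to 4.25%, ambiguous 0.656% to 0.893%, not unique 13.2% to 22.7%). Per the submitters' processing notes, TopHat2 2.1.1, Bowtie 1.2.0, SAMtools 1.6 and HTSeq were among the tools used, with no role given. In the sources used here, build, annotation release and strandedness were not given. Reads of antisense and overlapping genes therefore cannot be told apart. Reads without a unique place, such as those that match close paralogs equally, are in the summary lines and not in the gene counts. The labels' protocols describe embryos and ChIP. The other 153 of 165 samples were not analysed here.

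Differences were tested in R 4.3.3 with edgeR 4.0.16, by quasi-likelihood tests after TMM scaling and filterByExpr by strain, in 1 fit of the 12 libraries with strain as the only term, adjusted by Benjamini-Hochberg over 13186 genes (two-sided, threshold 0.05). Replicate 1 was tested with strain and a replicate 1 term. CPM are counts brought to a common library total and TMM-scaled, log2 CPM carry a prior count of 2, and the floor is 3 counts. The code was tested on simulated data. No library repeated another (lowest chi-square per gene 22.3).

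Pairing by replicate number was checked first: deviations from strain means were correlated between strains. The 12 same-numbered correlations ran from 0.32 to 0.94, all above the limit of 0.1. Without replicate 1 the range was -0.12 to 0.44 and 4 of 9 exceeded the limit. Replicate 1 thus carries most of the pairing.

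Of the gene ids, 19879 matched the RefSeq table of WBcel235, used for names, chromosomes and gene order only. Sequences and coding lengths were not used here, so levels were not compared between genes. The members, gene lists, tests and other settings were chosen with earlier results of these data known. Every member is named; from the wider list the 2 genes with the smallest p per comparison are named, with others chosen after their values were seen (hpr-9, mrt-1, sun-1, atm-1 and those not past the threshold). For likeness, the 2 named genes with the highest r and a mean of at least 5 CPM were taken. Other settings were RLE scaling, DESeq2 1.42.0, no filter, the block, replicates 2 to 4, fits of compared strains alone, and leaving out each library.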

Additional observations from a re-analysis of the deposited data

Results flagged for a closer look

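In 17 of 27 groups of 4 libraries (9 genes in 3 strains), 1 library lay far from the other 3 by Dixon's criterion, which chance alone flags in about 1 in 20 groups. The 27 groups share the same 12 libraries and are not independent, so their count restates the known split of replicate 1. All 17 were replicate 1 libraries and were high. They were trt-1 at 20.3 CPM in 15eh1, 15.8 CPM in YPT41 and 15.4 CPM in N2, pot-2 at 9.28 CPM in 15eh1, 7.74 CPM in YPT41 and 6.80 CPM in N2, and clk-2 at 49.8 CPM in 15eh1, 38.9 CPM in YPT41 and 50.0 CPM in N2. In 15eh1 and N2, but not by this criterion in YPT41, they were also pot-1 at 7.82 CPM in 15eh1 and 7.51 CPM in N2, tebp-1 at 45.8 CPM in 15eh1 and 52.5 CPM in N2, tebp-2 at 48.5 CPM in 15eh1 and 42.01 CPM in N2, and hus-1 at 11.9 CPM in 15eh1 and 13.7 CPM in N2. No replicate 1 library of pot-3 or mrt-2 met the criterion.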

How the results depend on the processing

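No member passed the threshold in any strain comparison under any alternative that gave it a p, the added ones included. DESeq2 gave no p for trt-1 and pot-2 there. The count in replicate 1 against replicates 2 to 4 was 7 to 9 of 9. Genes called among all tested moved more. In 15eh1 against N2 it was 0, with 10 under DESeq2, 9 with the replicate block, 2 in replicates 2 to 4 and 1 there with the block, and 0 to 1 leaving out 1 library. In YPT41 against N2 it was 29, with 287, 686, 134 and 160 under the same 4 alternatives, 16 without a filter, 6 in a fit of the compared strains alone, and 4 to 27 leaving out 1 library. In both fusion strains against N2 it was 5, with 71, 69, 11 and 8 under those 4, and 1 to 6 leaving out 1 library. In 15eh1 against YPT41 it was 24, with 145, 241, 74 and 69 under those 4, 8 in a fit of the compared strains alone, and 3 to 18 leaving out 1 library. Without YPT41 replicates 3 and 4, an alternative added after seeing the data, the 3 counts that involve YPT41 were 2, 2 and 1 (YPT41 over N2, both over N2, 15eh1 over YPT41). Within replicates 2 to 4, where YPT41 is then 1 library assumed to vary like the other strains, they were 31, 6 and 27. The causes of these shifts were not tested. In the fit of the compared strains alone, pot-2 did not pass the filter in both comparisons that use 15eh1 and has no value there.

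Of 565 alternative values of the members' strain differences, 557 with a p and none of those past the threshold, 123 had the other sign and 442 the same. With the replicate block, which uses the pairing by number, the changed log2 values were -0.044 for pot-2 and 0.097 for hus-1 (15eh1 over N2), 0.091 for tebp-2 (YPT41 over N2), -0.14 for trt-1 (both over N2) and -0.16 for pot-2 (15eh1 over YPT41). In replicates 2 to 4 they were -0.31 for pot-2 and 0.075 for hus-1 (15eh1 over N2), 0.19 for tebp-2 (YPT41 over N2), -0.38 for trt-1, -0.16 for pot-2 and 0.018 for clk-2 (both over N2), and -0.32 for pot-2, 0.082 for pot-3, 0.019 for tebp-1 and 0.049 for mrt-2 (15eh1 over YPT41). With the block in replicates 2 to 4 they were -0.33 for pot-2 and 0.18 for hus-1, -0.0037 for pot-2 and 0.19 for tebp-2, -0.38 for trt-1 and -0.17 for pot-2, and -0.33 for pot-2, 0.085 for pot-3, 0.040 for tebp-1 and 0.087 for mrt-2, in the same order of comparisons. RLE scaling gave -0.031 for pot-3 and -0.0090 for clk-2 (15eh1 over N2), -0.013 for tebp-2 (both over N2) and 0.018 for tebp-1 (15eh1 over YPT41). DESeq2 gave -0.024 for pot-3, -0.0091 for clk-2, -0.013 for tebp-2 and 0.018 for tebp-1. For pot-3 in 15eh1 over N2, no filter gave -0.0084 and the compared strains alone -0.011.

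Leaving out 1 library gave wide ranges of the 36 strain differences of members, and in 33 of 36 both ends came from leaving out a replicate 1 library. For 15eh1 over N2 they were -1.77 to 2.29 for trt-1, -0.41 to 0.85 for pot-1, -2.21 to 2.24 for pot-2, -0.11 to 0.19 for pot-3, -0.78 to 0.67 for tebp-1, -0.47 to 0.98 for tebp-2, -0.51 to -0.039 for mrt-2, -1.04 to 0.99 for hus-1 and -1.07 to 1.203 for clk-2. For YPT41 over N2 they were -2.85 to 1.83 for trt-1, -1.195 to 0.25 for pot-1, -1.90 to 2.08 for pot-2, -0.20 to 0.40 for pot-3, -0.79 to 0.67 for tebp-1, -0.56 to 0.56 for tebp-2, -0.56 to 0.032 for mrt-2, -1.93 to 0.44 for hus-1 and -1.24 to 0.91 for clk-2. For both over N2 they were -1.26 to 2.06 for trt-1, -0.52 to 0.55 for pot-1, -1.03 to 2.16 for pot-2, -0.11 to 0.26 for pot-3, -0.46 to 0.67 for tebp-1, -0.32 to 0.77 for tebp-2, -0.45 to -0.0031 for mrt-2, -1.03 to 0.72 for hus-1 and -0.67 to 1.05 for clk-2. For 15eh1 over YPT41 they were -1.66 to 3.18 for trt-1, 0.027 to 1.34 for pot-1, -2.38 to 2.21 for pot-2, -0.37 to 0.18 for pot-3, -0.67 to 0.67 for tebp-1, -0.28 to 0.78 for tebp-2, -0.27 to 0.22 for mrt-2, -0.37 to 1.805 for hus-1 and -0.79 to 1.25 for clk-2. In replicate 1 against replicates 2 to 4 each member kept its sign, and the pot-3 call was lost without a filter (0.60, adjusted p = 0.0987). trt-1, pot-1, pot-2 and hus-1 had 4 to 22 counts each in YPT41 replicates 3 and 4, which limits the precision of their values there.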
